A study of Bos taurus with 15 samples.

Results

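Solute carriers are the membrane proteins that move sugars, amino acids, metals, ions and metabolites into and out of cells and their organelles. On the bovine array 63 gene names followed the solute carrier pattern (SLC, a family number, a letter and a member number) once SLC40A1 and SLC4A1 had been left out. Of these, 50 were kept, each by the brightest probe that bears its name, among 16069 kept probes of 21475 bovine probes. The members were chosen by measured values, namely a signal well above background on no fewer than 7 of the 15 arrays and the mean brightness of the probe, so that neither is a finding here. SLC2A5 and SLC4A4 lay just inside that limit with 7 arrays, no name had 6, and SLC24A1, a sodium, calcium and potassium exchanger, lay just outside with 5.

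Carriers are grouped into families by sequence, and members of a family often share a kind of cargo: family 2 carries sugars down their gradient, family 1 takes up glutamate or neutral amino acids with sodium, family 25 lies in the mitochondrial inner membrane and family 39 brings zinc into the cytosol. The thymus is where T cells mature. Dividing thymocytes draw heavily on glucose, glutamine and large neutral amino acids, and immature thymocytes are among the cells that glucocorticoids kill.

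The thymus came from 15 Holstein cows and was taken at slaughter. Prednisolone, which acts on the glucocorticoid receptor, had been given orally to 8 of them for 35 days at a daily dose of 30 mg for each animal. The 7 controls were of the same breed and had received no treatment. No age was used here. Each array took the dye-labelled RNA of 1 animal, and the animal is thus the replicate.

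All values below are log2 signals minus the 75th percentile of the array's bovine spots, and all differences are prednisolone minus control on that scale. The share of spots well above background was 67.1% to 77.7% per array, and precision is limited by how many arrays there are. The arrays lay on 4 slides. Slide 4 held 3 prednisolone animals (2, 4 and 7) and no control, and each of slides 1 to 3 had a single animal on 1 side. Differences from a fit with slide as a block (slide-blocked) are therefore given beside the plain ones of 6 groups by cargo, of the 4 members with the smallest p and of each member whose sign turned in that fit. Thymocyte markers were high as a mean on every array: the mean value of 13 kept markers of 16 lay between 2.81 and 3.02 in controls and between 2.93 and 3.11 with prednisolone. Single markers were not all high: RAG1 had group means of -2.19 and -2.21, and CD3D of -0.12 and -0.076. CD4, RAG2 and CD1A had no probe named here. Of the 13 markers 11 were higher and 2 lower with prednisolone, with 0 passing the test given below. Their part in the carriers' values was not tested.

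The question is whether any thymic carrier has another transcript level after prednisolone. No member passed the test (limma, adjusted p under 0.05 over all kept probes), where 0% of all kept probes passed. The members with the smallest p were SLC25A25, a mitochondrial carrier of ATP-magnesium and phosphate, SLC25A4, a mitochondrial ADP/ATP exchanger, and the neutral amino acid carriers SLC1A4 and SLC1A5, all with higher values in treated cows. At an unadjusted p under 0.05 there were these 4 of 50 members (8%), against 7.08% of all kept probes. Of the kept probes 3.98% were higher and 3.1% lower at that level, and of the members 4 were higher and 0 lower. The smallest limma adjusted p among members was 0.418, and 0.236 over all kept probes. In no member did the 2 groups separate without overlap, which 0.118% of all kept probes did. With slide as a fixed block 3 of 50 members (6%), SLC25A25, SLC1A4 and SLC22A6, had an unadjusted p under 0.05, against 9.57% of all kept probes, and again none passed.

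Over the 50 members 23 were higher and 27 lower with prednisolone, with a median difference of -0.045 and quartiles of -0.14 and 0.10. Over all kept probes 8016 were higher and 8053 lower, with a median of -0.00044. SLC1A5 was the 1 member of 50 (2%) that differed by more than 0.5, against 6.33% of all kept probes. With slide as a block the members' median was 0.0095, without slide 4 it was 0.067, and within slides 1, 2 and 3 it was 0.050, 0.015 and -0.038. The mean over the members was -2.0 ± 0.065 in controls and -2.0 ± 0.14 with prednisolone (SD, n = 7 and 8). In whole tissue fewer cells of a type and less RNA per cell cannot be told apart.

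**Figure D1:**
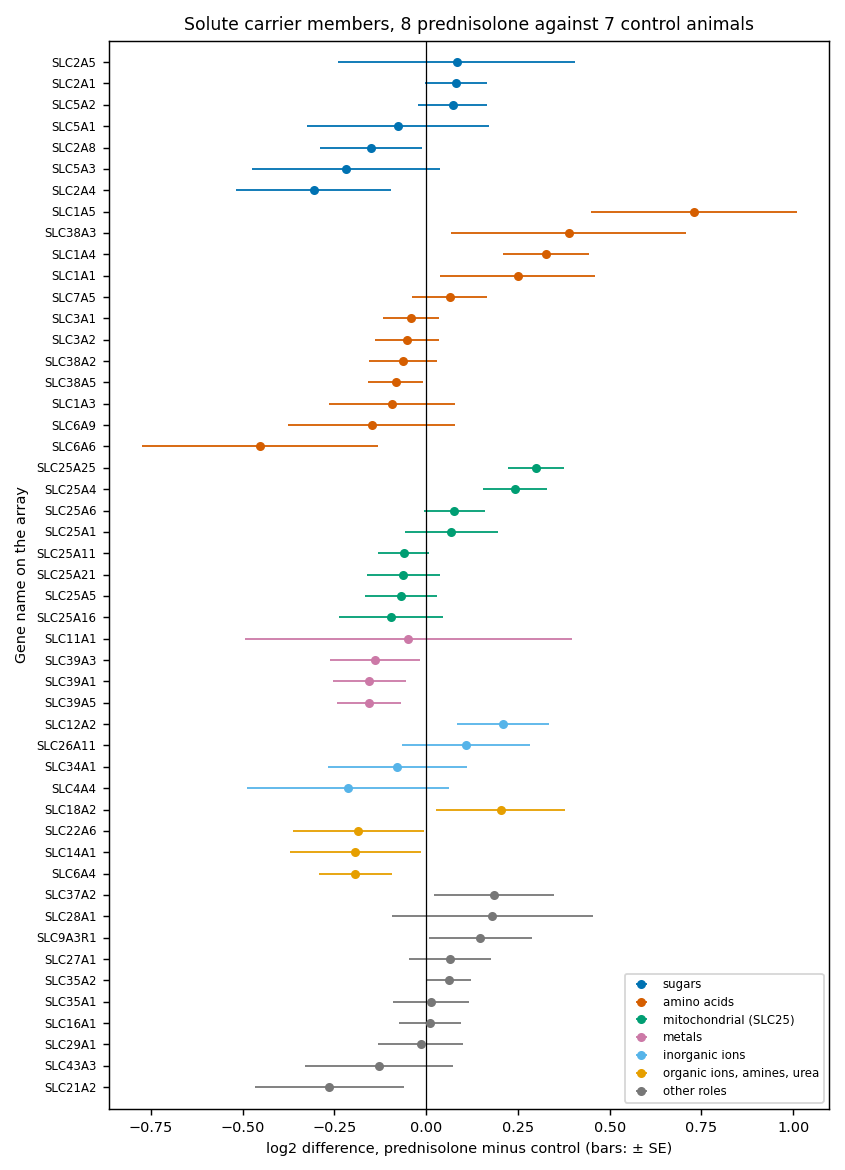
Log2 difference, prednisolone minus control, of 49 of the 50 members (points; bars are ± SE of the limma fit), coloured by cargo, with the gene name on the vertical axis. Differences run from -0.45 (SLC6A6) to 0.73 (SLC1A5), the bars of most members reach 0, and no member passed.

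Carriers of glucose and other sugars numbered 7, of which 3 were higher and 4 lower, with a median of -0.077. That median was -0.053 with slide as a block, 0.066 without slide 4, and -0.052, 0.11 and 0.12 within slides 1, 2 and 3. None passed, and none had an unadjusted p under 0.05. SLC2A4, the insulin-responsive glucose carrier of muscle and fat, ran from -3.38 to -2.18 in controls with a median of -2.94, and from -3.51 to -2.65 with prednisolone with a median of -3.05. Controls 1, 2 and 3 were higher than all treated animals, while the other 4 controls lay within their range. The difference was -0.31 ± 0.21 (SE; limma adjusted p = 0.799), -0.23 in the slide-blocked fit and -0.093 without slide 4. SLC2A8, an intracellular glucose carrier, was -0.15 ± 0.14 and turned to 0.045 without slide 4.

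SLC2A1, which supplies glucose to most cells, ran from 0.30 to 0.68 in controls and from 0.35 to 0.81 in treated cows. The groups overlapped almost entirely, and the difference was 0.081 ± 0.085. The sodium-coupled carriers of glucose, SLC5A1 and SLC5A2, gave -0.077 ± 0.25 (turning to 0.29 with slide as a block) and 0.072 ± 0.093, and SLC5A3, which carries inositol, gave -0.22 ± 0.26. SLC2A5, a fructose carrier, cleared background on 2 control and 5 prednisolone arrays and gave 0.083 ± 0.32, or -0.45 with slide as a block. The name SLC2A3, a glucose carrier of high affinity, was not kept, because its own probe was well above background on 1 array. Another probe that the array lists under a transcript accession, and that RefSeq assigns to SLC2A3, was well above background on 15 arrays and gave 0.19. The whole list of sugar carriers, drawn up from general knowledge with earlier results of these data known, had 15 kept genes of 20, with 8 higher and 7 lower, 0 passing and a median of 0.072.

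Amino acid carriers of the plasma membrane numbered 12, of which 5 were higher and 7 lower, with a median of -0.046. The slide-blocked median of the group was 0.0095, and without slide 4 it was 0.046. Among its members of family 1, 3 of 4 were higher, with a family median of 0.29 (also 0.29 with slide as a block). None passed. SLC1A5, the main sodium-dependent glutamine carrier of dividing cells, ran from 0.055 to 1.96 in controls with a median of 1.37, and from 1.02 to 2.14 with prednisolone with a median of 1.84. Controls 2, 4 and 7 lay at 0.32, 0.37 and 0.055, below all treated animals, while the other 4 controls lay from 1.37 to 1.96, within the treated range. The difference was 0.73 ± 0.28 (limma adjusted p = 0.655), 0.62 ± 0.35 in the slide-blocked fit, and within slides 1 to 3 it was 0.26, 0.70 and 0.91. Leaving out single animals gave 0.57 (without control 7) to 0.89 (without control 5).

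SLC1A4, a carrier of alanine, serine, cysteine and threonine, ran from -3.47 to -2.77 in controls with a median of -3.25, and from -3.09 to -2.53 with prednisolone with a median of -2.82. All 8 treated animals were above the control median, and the ranges overlapped through controls 3, 6 and 7. The difference was 0.33 ± 0.12 (limma adjusted p = 0.655) and 0.36 ± 0.15 with slide as a block, with 0.74, -0.028 and 0.36 within slides 1, 2 and 3. The glutamate carriers of the family gave 0.25 ± 0.21 (SLC1A1) and -0.093 ± 0.17 (SLC1A3).

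SLC3A2, the heavy chain that brings several amino acid exchangers to the cell surface, ran from 1.73 to 2.20 in controls and from 1.70 to 2.13 in treated cows. Its light chain SLC7A5, a carrier of large neutral amino acids that activated T cells need, ran from 0.95 to 1.19 and from 0.79 to 1.54. Both overlapped, with differences of -0.052 ± 0.087 and 0.064 ± 0.10. SLC7A5 was high on slide 4, with a mean of 1.39 against 1.0 in the other 5 treated animals, and turned to -0.051 with slide as a block. SLC3A1, the heavy chain known from kidney and gut, gave -0.041 ± 0.077, and 0.011 with slide as a block.

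SLC6A6, which carries taurine, ran from -5.57 to -4.52 in controls and from -6.81 to -4.54 with prednisolone, with a difference of -0.45 ± 0.32 (limma adjusted p = 0.807). The 3 animals of slide 4 lay from -6.81 to -6.03, below all 12 arrays of the other slides, which lay from -5.58 to -4.52. Without slide 4 the difference was 0.081. SLC6A9, a glycine carrier, gave -0.15 ± 0.23, or 0.059 with slide as a block, and 90.2% of its spread between animals lay between slides. In the sodium-coupled neutral amino acid family, SLC38A2 gave -0.062 ± 0.093 (0.019 with slide as a block) and SLC38A5 -0.083 ± 0.074. SLC38A3, a glutamine carrier known from liver and kidney, gave 0.39 ± 0.32, cleared background on 3 control and 6 prednisolone arrays, and was 0.0079 with slide as a block. The whole list of amino acid carriers had 29 kept genes of 38, with 14 higher and 15 lower, 0 passing and a median of -0.022.

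**Figure D2:**
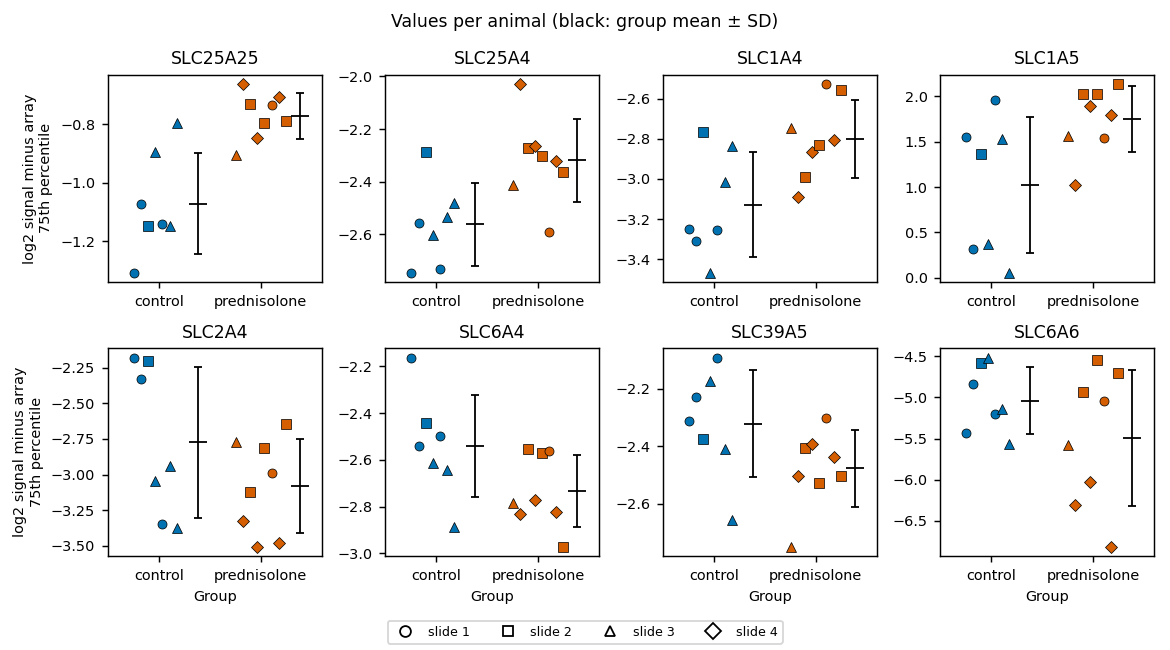
Log2 signal minus the array's 75th percentile for 8 named members (1 panel each), by group, with 1 point per animal and its shape giving the slide; black bars show the group mean ± SD. In SLC25A25 all treated animals lie above the control median of -1.14, SLC1A5 has 3 low controls, and in SLC6A6 the 3 diamonds of slide 4 lie from -6.81 to -6.03, below all other animals.

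Mitochondrial carriers of family 25 numbered 8, the 1 family with at least 5 members, with 4 higher and 4 lower and a median of 0.0035, or -0.0049 with slide as a block. Their mean value was 0.52 ± 0.041 in controls and 0.57 ± 0.043 with prednisolone. SLC25A25 ran from -1.31 to -0.80 in controls with a median of -1.14, and from -0.91 to -0.66 with prednisolone with a median of -0.76. All treated animals were above the control median. Of the controls 5 lay below the lowest treated animal, and controls 4 and 7, both on slide 3, lay within the treated range. The difference was 0.30 ± 0.076 (limma adjusted p = 0.418), 0.28 ± 0.097 in the slide-blocked fit (limma adjusted p = 0.376), and 0.44, 0.38 and 0.041 within slides 1, 2 and 3. A second probe of SLC25A25 was well above background on 5 arrays, was not kept, and gave -0.018.

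SLC25A4 ran from -2.75 to -2.29 in controls with a median of -2.56, and from -2.59 to -2.03 with prednisolone with a median of -2.31. Of the 8 treated animals 7 were above the control median. The difference was 0.24 ± 0.087 (limma adjusted p = 0.655), and it was 0.062 ± 0.078 with slide as a block. Of the spread of this gene 81.6% lay between slides. The other ADP/ATP exchangers gave -0.069 ± 0.098 (SLC25A5) and 0.077 ± 0.082 (SLC25A6). SLC25A6 ran from 6.52 to 6.87 in controls and from 6.52 to 6.89 in treated cows, so that the groups covered almost the same range.

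The remaining mitochondrial members gave 0.069 ± 0.13 for the citrate carrier SLC25A1, -0.062 ± 0.070 for the oxoglutarate carrier SLC25A11, -0.062 ± 0.10 for the oxodicarboxylate carrier SLC25A21 and -0.096 ± 0.14 for SLC25A16. SLC25A3, which brings phosphate into the matrix, was not kept, because its probe was well above background on 2 arrays. The whole list of family 25 had 36 kept genes of 44, with 14 higher and 22 lower, 0 passing and a median of -0.044. Its 28 kept genes outside the members had 10 higher and 18 lower.

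Metal carriers numbered 4, and 0 were higher and 4 lower, with a median of -0.15. The slide-blocked median was -0.19, and without slide 4 it was -0.011, where SLC39A1 and SLC11A1 turned to 0.0084 and 0.063. None passed. SLC39A5, a zinc importer, ran from -2.66 to -2.09 in controls with a median of -2.31, and from -2.75 to -2.30 with prednisolone with a median of -2.47. Of the 8 treated animals 7 lay below the control median, and the ranges overlapped. The difference was -0.16 ± 0.088 (limma adjusted p = 0.742), -0.18 ± 0.097 in the slide-blocked fit, and within slides 1 to 3 it was -0.091, -0.10 and -0.33.

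The other zinc importers were SLC39A1 and SLC39A3. SLC39A1 ran from 0.99 to 1.28 in controls and from 0.61 to 1.23 with prednisolone, and the 3 animals of slide 4 were below all 12 others. Its difference of -0.15 ± 0.10 turned to 0.013 in the slide-blocked fit and to 0.0084 without slide 4. SLC39A3 gave -0.14 ± 0.12, -0.20 in the slide-blocked fit and -0.030 without slide 4, and was lower within each of slides 1 to 3.

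SLC11A1, which pumps metal ions out of the macrophage phagosome, varied most between animals among the members, with a residual SD of 0.93. It ran from -7.80 to -4.45 in controls and from -6.86 to -4.46 with prednisolone, cleared background on 4 control and 5 prednisolone arrays, and gave -0.049 ± 0.45. The whole list of metal carriers had 22 kept genes of 31, with 5 higher and 17 lower, 0 passing and a median of -0.064. That median was -0.062 in the slide-blocked fit and -0.011 without slide 4. Of the 8 kept genes of family 39 outside the members 5 were higher and 3 lower. Macrophage markers, all 8 of 8 kept, had mean values from -0.42 to 0.41 in controls and from -0.65 to 0.19 with prednisolone. Their medians over animals were 0.16 and -0.22, and 0 of the 8 were higher and 8 lower, with 0 passing. Without slide 4 CD68, CSF1R and C1QA turned to 0.052, 0.0032 and 0.0043, and the other macrophage markers stayed lower. With slide as a block all 8 stayed lower. HMOX1, which breaks down haem, gave -0.43 ± 0.16 (limma adjusted p = 0.655), and -0.27 without slide 4. The part of these markers in the values of SLC11A1 and the other metal carriers was not tested.

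Carriers of inorganic ions numbered 5, of which 3 were higher and 2 lower, with a median of 0.11. With slide as a block it was 0.035, and within slide 3 it was -0.31. None passed or had an unadjusted p under 0.05. SLC12A2, the sodium, potassium and chloride cotransporter of cell volume control, gave 0.21 ± 0.13 from the probe that bears its name. A second probe that RefSeq assigns to the gene, listed on the array under a transcript accession, gave -0.015. It was well above background on 15 arrays and was the brighter one, with a mean value of -1.14 against -4.72. SLC4A4, a sodium bicarbonate cotransporter, gave -0.21 ± 0.28 from a probe that cleared background on 2 control and 5 prednisolone arrays. A second probe of this kind, well above background on 15 arrays, gave -0.076. SLC26A11, an anion exchanger, gave 0.11 ± 0.17, with prednisolone animal 7 highest at 2.1. SLC34A1, a phosphate carrier of the kidney, gave -0.079 ± 0.19, with 76.4% of its spread between slides. The whole list of ion carriers had 32 kept genes of 57, with 13 higher and 19 lower, 0 passing and a median of -0.062.

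Carriers of organic ions, amines and urea numbered 4, of which 1 was higher and 3 lower, with a median of -0.19. That median turned to 0.022 with slide as a block and to 0.059 within slide 1, and was -0.041 without slide 4. None passed. SLC6A4, which takes up serotonin, ran from -2.89 to -2.16 in controls with a median of -2.54, and from -2.97 to -2.56 with prednisolone with a median of -2.78. All 8 treated animals lay below the control median, and the ranges overlapped. The difference was -0.19 ± 0.10 (limma adjusted p = 0.718), -0.16 ± 0.11 in the slide-blocked fit, and within slides 1 to 3 it was -0.16, -0.26 and -0.070.

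SLC18A2, which loads amines into vesicles, gave 0.20 ± 0.18 and 0.33 ± 0.19 with slide as a block. SLC22A6, an exchanger of organic anions known from the kidney, gave -0.18 ± 0.18. With slide as a block SLC22A6 was -0.27 ± 0.12 (unadjusted p = 0.0418, limma), the third member under 0.05 in that fit. The urea carrier SLC14A1 gave -0.19 ± 0.18 and turned to 0.21 with slide as a block. It was higher within each of slides 1 to 3, by 0.28, 0.17 and 0.17, while the 3 animals of slide 4 had a mean of -5.15 against -4.63 in the other 5 treated animals. The whole list of these carriers had 21 kept genes of 42, with 10 higher and 11 lower, 0 passing and a median of -0.019.

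Other members carried varied cargo. SLC16A1, a carrier of lactate and pyruvate, ran from -2.73 to -2.44 in controls and from -2.91 to -2.26 with prednisolone, and gave 0.011 ± 0.085, or -0.063 with slide as a block. SLC27A1, a fatty acid carrier, gave 0.065 ± 0.11. The nucleoside carriers gave -0.015 ± 0.11 (SLC29A1, turning to 0.19 with slide as a block) and 0.18 ± 0.27 (SLC28A1, well above background on 10 arrays). SLC35A1 and SLC35A2, which bring CMP-sialic acid and UDP-galactose into the Golgi, gave 0.013 ± 0.10 (-0.12 with slide as a block) and 0.062 ± 0.059. SLC37A2, a sugar phosphate carrier, gave 0.18 ± 0.16, and SLC43A3 gave -0.13 ± 0.20.

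SLC21A2, the prostaglandin carrier that RefSeq now calls SLCO2A1, gave -0.26 ± 0.20 (limma adjusted p = 0.821). The 3 animals of slide 4 were below all 12 others, and the difference was 0.0063 in the slide-blocked fit and 0.092 without slide 4. A second kept probe of SLC21A2 gave -0.032, of the same sign. SLC9A3R1 matches the name pattern but is a scaffold protein that binds a carrier and carries nothing itself. It is now called NHERF1, and gave 0.15 ± 0.14.

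In most members more of the spread between animals lay between the slides than between the groups. Slides and groups overlap, so the share between slides also holds part of any difference between the groups. The median share of a member's sum of squares was 39.4% between the 4 slides and 7.19% between the groups. With equal spread over all contrasts the mean share, not the median, would be 21.4% between slides and 7.14% between groups, since there are more slides than groups. Such shares are skewed, so these means are no measure for the medians. Over all kept probes the medians were 42.8% and 4.37%. In 46 of 50 members, and in 14977 of all 16069 kept probes, the share between slides was larger than that between groups. SLC25A25, with 60.3% between groups and 34.5% between slides, and SLC1A4, with 37.2% and 18.8%, were 2 of the other 4 members.

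**Figure D3:**
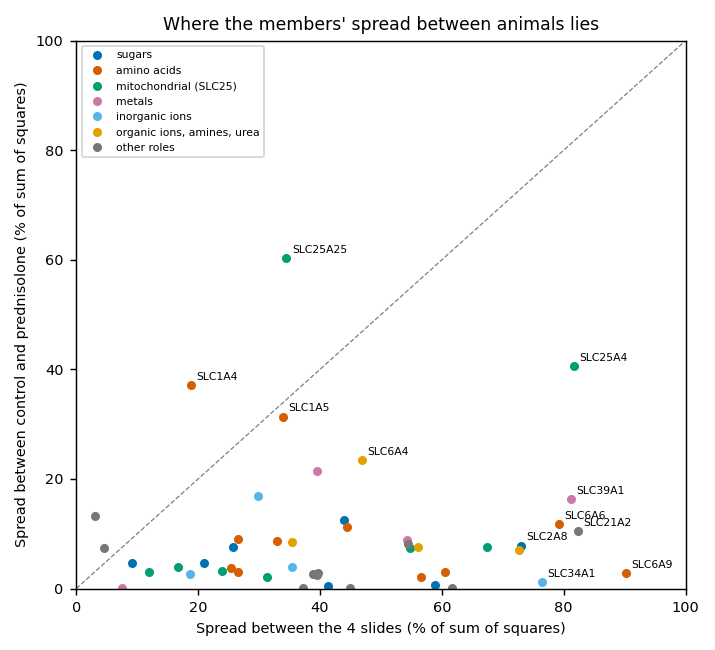
Share of each member's sum of squares over the 15 animals that lay between the 4 slides (horizontal axis, %) and between the groups (vertical axis, %), with 1 point per member for 49 members and the dashed line marking equal shares. Most members lie below the line, SLC6A9 is farthest right at 90.2%, and SLC25A25 is highest at 60.3%. Slides and groups overlap, so the shares do not add up.

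The animals of slide 4 had a lower mean than the other 5 treated animals in 35 members and a higher one in 15. All 3 lay below all 12 other arrays in SLC21A2, SLC39A1 and SLC6A6, and above them in 0 members. These slide 4 counts were not taken over all kept probes, so they cannot tell the members from the array as a whole. With slide as a block the sign turned in 12 of 50 members (24%), against 27.2% of all kept probes, and without slide 4 in 17 (34%), against 29.2%. Within each of slides 1 to 3 the difference was positive in 10 members, among them SLC25A25, SLC1A5 and SLC2A1, and negative in 9, among them SLC6A4, SLC39A3 and SLC39A5. These are 20% and 18% of the members, against 18.2% and 16.7% of all kept probes with a value on each slide. Slide and treatment cannot be told apart for slide 4.

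**Figure D4:**
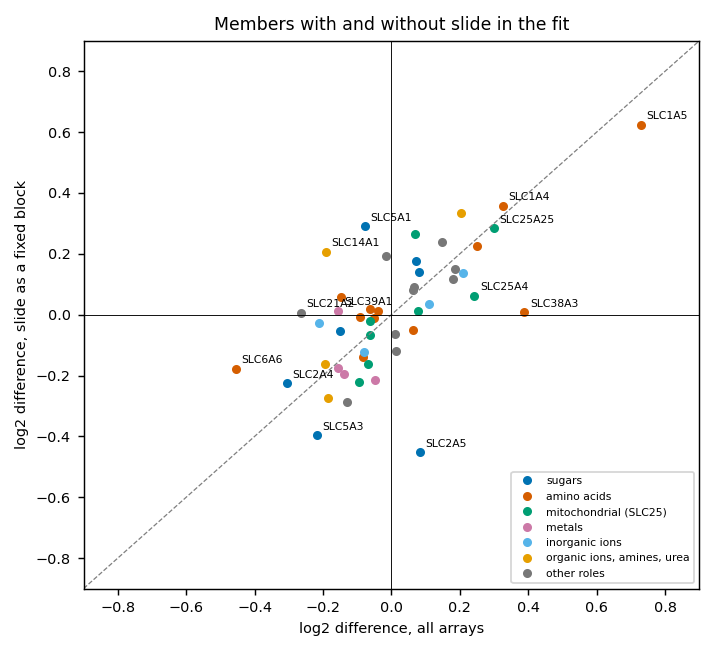
Log2 difference of each of 49 members over all arrays (horizontal axis) and with slide as a fixed block (vertical axis), coloured by cargo, with a dashed line of equal values. SLC25A25, SLC1A4 and SLC1A5 stay near the line, SLC25A4 drops from 0.24 to 0.062, and SLC14A1, SLC5A1 and SLC2A5 lie in the quadrants of opposite sign.

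Background correction moved some of the leading values. With normexp, taken relative to the shift of -0.21 that it gave the median of all kept probes, SLC25A25 was 0.31 and SLC1A5 0.97, while SLC25A4 was 0.073 and SLC1A4 0.010.

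Of the 50 members, 41 were well above background on all 15 arrays and 9 on fewer, and 0 were below it on all arrays of a group. No spot of a member was saturated. Among the 9 were SLC2A5, SLC4A4, SLC11A1, SLC38A3, SLC28A1, SLC43A3, SLC5A1 and SLC34A1. Their values lie near background, but their errors were not all large. SLC11A1 had the largest SE of the members, at 0.445, and SLC34A1 had 0.19. SLC6A6 and SLC1A5, well above background on all 15 arrays, had 0.32 and 0.28. The 13 names not kept were SLC24A1, SLC34A2, SLC6A8, SLC7A9, SLC25A3, SLC2A3, SLC8A1, SLC17A2, SLC26A10, SLC2A2, SLC2A12, SLC5A11 and SLC6A2, of which the last 4 were above background on 0 arrays.

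Some carriers work only as complexes, so 6 pairs of partners were set against each other over the 15 animals. BSG, the chaperone of monocarboxylate carriers, and SLC16A1 had Pearson r = -0.59 (permutation p = 0.0226, 0.136 after Benjamini-Hochberg adjustment over the 6 pairs) and Spearman rho = -0.51 (permutation p = 0.0573, adjusted 0.340). Without the 2 animals farthest from the median of BSG, prednisolone 2 and 8, r was -0.32, and on values centred on slide means it was -0.33. SLC3A2 and SLC7A5 had r = -0.14 (permutation p = 0.620, adjusted 0.744) and rho = -0.10 (permutation p = 0.725, adjusted 0.725), r = -0.085 without 2 animals and 0.33 on slide-centred values. No pair passed. Of the other pairs, SLC3A2 with SLC7A11, the cystine exchanger, had r = 0.36 (permutation p = 0.185, adjusted 0.370) and rho = 0.38 (permutation p = 0.170, adjusted 0.340). Its r was 0.69 without 2 animals, control 5 and prednisolone 2 (permutation p = 0.0110, adjusted 0.0661), and 0.54 on slide-centred values (adjusted 0.453).

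Carriers outside the members gave the same picture of no passing gene. RefSeq gene numbers, accessions and descriptions named 179 further kept genes of the solute carrier families, with 77 higher, 102 lower and a median of -0.023. Their smallest p belonged to SLC50A1, a sugar carrier, with -1.24 ± 0.33 (limma adjusted p = 0.478), and none passed. Carriers and partners without a solute carrier name numbered 43 kept of 64, with 27 higher, 16 lower and 0 passing. At an unadjusted p under 0.05 (limma) there were 3 of these 43 (6.98%), near the 7.08% of all kept probes. Among the 3 were MFSD11, 0.65 ± 0.15 (limma adjusted p = 0.418), and ANKH, which exports pyrophosphate, 0.57 ± 0.21 (limma adjusted p = 0.655). MFSD11 cleared background on 5 control and 8 prednisolone arrays. The lower ones with the smallest p were SFXN1, a mitochondrial serine carrier, -0.16 ± 0.091, CNNM2, -0.11 ± 0.086, and SLCO5A1, -0.23 ± 0.20.

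Markers of other tissues bear on carriers known from those tissues. Adipocyte markers, 6 kept of 8 with ADIPOQ and LEP below background, had mean values from -2.66 to -0.47 in controls and from -2.74 to 0.19 with prednisolone. Skeletal muscle markers, 6 kept of 8 with CKM below background, lay from -2.58 to -0.12 and from -3.38 to -0.16. In both lists 6 of 6 kept markers were higher and 0 lower, with 0 passing. The part of either in the value of SLC2A4, a carrier of muscle and fat, was not tested. Liver markers, 5 kept of 8, lay from -3.42 to -2.83 in controls and from -3.99 to 0.87 with prednisolone, while ALB, APOH and FGB were below background and SLC2A2, the glucose carrier of liver, was above background on 0 arrays. Of the 5 kept liver markers 4 were higher and 1 lower, with 0 passing.

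Erythroid markers, 7 kept of 8, lay from -1.96 to -0.67 in controls and from -1.91 to -0.97 with prednisolone. Thymic epithelial markers, 8 kept of 9, lay from 0.98 to 1.47 and from 0.77 to 1.49, B cell markers, 6 of 6, from -1.95 to -1.53 and from -1.72 to -1.09, and endothelial markers, 6 of 6, from -3.50 to -2.97 and from -3.59 to -2.87. Thyroid markers, 4 kept of 6 with TSHR and NKX2-1 below background, lay from -5.06 to -4.67 and from -5.55 to -4.43. Neuron and testis markers, 4 kept of 6 with TNP1 and SYT1 below background, lay from -3.72 to -0.17 and from -4.18 to -1.63. Of the kept erythroid markers 1 was higher and 6 lower, of the thymic epithelial 4 and 4, and of the B cell markers 5 and 1. For endothelial markers the counts were 1 and 5, for thyroid 1 and 3, and for neuron and testis 1 and 3, with 0 passing in each list. The ranges of the groups overlapped in each list, and the part of these lists in the carriers' values was not tested.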

How the data were processed

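The authors deposited 1 scanner file per array (a bovine Agilent oligonucleotide design, 1 dye) with the intensity of every spot. Per the file headers these come from Feature Extraction 9.5.1.1, whose processed signal has the background subtracted and no scaling across arrays. A second deposited table, of linear intensity values, served as an alternative; its array medians were 188.5 to 274.1, and how it was centred is unknown. R 2.11.1 is named in the submitters' processing notes, and the normalization is not given in the sources used here.

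From these, log2 signals of bovine spots were centred on each array's 75th percentile, spots flagged as outliers were left out, and spots of a probe were averaged. This emptied a value on at least 1 array for 67 kept probes, none of them a member's. Genes were named by the array's gene names, and other carriers through the RefSeq table (ARS-UCD2.0), which with the descriptions gave 15036 distinct symbols. No sequence is shown, and the values of 1 member and 1 partner gene are not reported here, though the counts and medians hold them. All 16069 kept probes were fitted in R 4.3.3 by limma 3.58.1 (statmod 1.5.0), with Benjamini-Hochberg adjustment over all of them and a threshold of 0.05. Pairs were tested with 1e+05 permutations.

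The members, role lists, markers and tests were chosen with earlier results of these data known. Members named first were, as none passed, the 10 with the smallest p in each direction, the 6 with the largest residual SD, the 2 with the smallest p in each family of 5 or role group of 3, and the partner pairs; the other members follow with their values, and of the partners the 3 with the smallest p in each direction. Alternatives were quantile normalization, median centring, normexp with an offset of 50, the authors' values, outlier spots kept, 2 other filters, slide as a fixed or random block, slide 4 left out, values within slides, eBayes with trend and robust, array weights, each animal left out, and all kept probes of a gene averaged. The calculation was tested on simulated data. Samples were grouped by the treatment label, and whether the animals were housed or penned together is not given in the sources used here.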

Additional observations from a re-analysis of the deposited data

Results flagged for a closer look

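Of 54 groups tested (25 named members, the mean over the members and the mean over family 25, each in controls and in treated cows), 2 held 1 animal far from the others of its group; chance alone sets such an animal apart in about 1 of 20 groups, and over all members there were 5 in 100 groups. Prednisolone animal 8 had SLC11A1, a metal pump of macrophages, at -4.46, while the other treated animals lay from -6.86 to -5.90, values near background. Control 5 had SLC2A8, an intracellular glucose carrier, at -0.99, while the other controls lay from -0.55 to -0.25.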

How the results depend on the processing

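No member passed under any of the alternatives run. Of all kept probes, 1 passed with quantile normalization and 3 without prednisolone animal 1 (0 to 3 over single animals left out), and 0 under the others; the cause was not tested here or below. The median of all probes was shifted by -0.21 with normexp, and log2 differences for normexp are relative to it. Its p-values and its counts of probes come from the limma fit with that shift still present. So counted, normexp gave 2987 probes and 10 members at an unadjusted p under 0.05, with 371 probes higher and 2616 lower. No filter gave 1728 probes. Against 640 higher and 498 lower, that count split 719 to 720 under quantile normalization and 547 to 650 under median centring. Members' medians under normexp were -0.19 (all), 0.20 (family 25), -0.33 (sugars), 0.18 (amino acids), -0.55 (inorganic ions) and -0.49 (organic ions). The family 25 median was -0.062 with no filter and 0.088 within slide 1. Within slide 1 the median was 0.14 for amino acids and 0.059 for organic ions, which had 0.022 with slide as a block, and within slide 3 it was -0.31 for inorganic ions.

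Of 25 named members, SLC1A4, SLC1A5, SLC25A25, SLC25A4, SLC2A4, SLC39A3, SLC39A5 and SLC6A4 kept their sign under all alternatives except within single slides, where SLC25A4, SLC1A4 and SLC2A4 did not. Others turned. With normexp SLC12A2 was -0.42, SLC16A1 -0.17, SLC18A2 -0.49, SLC1A1 -0.36, SLC2A5 -0.60, SLC2A8 0.027, SLC37A2 -0.27, SLC38A3 -0.53, SLC38A5 0.26, SLC39A1 0.20 and SLC3A2 0.24. Without slide 4 SLC11A1 was 0.063, SLC14A1 0.00065, SLC16A1 -0.091, SLC21A2 0.092, SLC2A8 0.045, SLC39A1 0.0084, SLC3A2 0.0040, SLC4A4 0.092, SLC6A6 0.081 and SLC7A5 -0.082. With slide as a fixed block SLC14A1 was 0.21, SLC16A1 -0.063, SLC21A2 0.0063, SLC2A5 -0.45, SLC39A1 0.013 and SLC7A5 -0.051, and as a random block SLC14A1 was 0.029, SLC16A1 -0.027 and SLC2A5 -0.23. Array weights gave SLC16A1 -0.045, SLC2A8 0.0027, SLC4A4 0.0068 and SLC7A5 -0.0011. The authors' values gave SLC11A1 0.12 and SLC4A4 0.14, and quantile normalization gave SLC11A1 0.075. With single animals left out SLC11A1 ran from -0.36 to 0.20, SLC16A1 from -0.033 to 0.059 and SLC2A5 from -0.086 to 0.28. Of the pairs, SLC3A2 with SLC7A5 turned to 0.33 and BSG with SLC16A3 to -0.049 on slide-centred values, and the latter to -0.33 without 2 animals.

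No paired analysis was possible because replicate numbers were given in accession order and pair no animals. Dim probes limit the values of 9 members, and each slide with both groups had 1 animal on 1 side, so that values within slides have no error of their own.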
